A study of Saccharomyces cerevisiae with 2 samples.

Results

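The mRNAs that encode the proteins of the cytoplasmic small ribosomal subunit were examined in iCLIP data for Dbp2p, a helicase of the DEAD-box family in Saccharomyces cerevisiae. Members were all nuclear genes whose standard name is RPS followed by a number and an optional A or B, matched to the data by systematic name, which gave 56 of 6002 annotated nuclear protein-coding genes. They encode 32 proteins, 24 of them from a pair of copies (A and B) and 8 from a gene with no copy, and lie on 14 chromosomes. In iCLIP, irradiated cells are lysed, the protein is purified with the RNA crosslinked to it, and reverse transcription that stops at the crosslink marks the contact at or beside single nucleotides. The samples form 1 group of 2 replicates, both from the MATa strain BTY140, which carries his3Δ1, leu2Δ0, met15Δ0, ura3Δ0 and the tagged allele DBP2-HTBH:kanMX6, used for pull-down by its HIS-biotin tag. The cells were grown in YPD at 30 °C to an OD600 near 1.0 and irradiated before harvest. No untagged, unirradiated or input library was used here, so no position was set against a background. The series' design text speaks of a biological replicate and says nothing more of separate cultures, so the spread given here is that between these 2 samples, with the tagged allele in both.

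The small subunit reads the messenger RNA. Its head, beak, body and platform are built from the 18S ribosomal RNA and the Rps proteins, and its genes are among the most strongly transcribed of a growing yeast cell. Many of them carry an intron, usually close to the start of the gene, and the copies of a pair encode identical or nearly identical proteins. Dbp2p unwinds RNA and is known to act on newly made transcripts as proteins assemble on them.

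Each table lists crosslinked nucleotides, the gene each was assigned to and the fraction of that gene's signal at the nucleotide. The fractions sum to 1 in every gene, so the reads behind a gene or a position are unknown and no interval can be set on them. The number of listed positions measures how widely a gene was crosslinked and can vary with the gene's expression, its length and the depth of the library, which cannot be told apart here. Replicate 1 held 8666 positions under 2787 gene names and replicate 2 held 18088 under 3873. The members held 227 and 474 of these positions, or 3.62% and 2.88% of all positions in protein-coding genes. None of the 701 member positions lay inside another annotated gene on either strand. Coordinates are 1-based on sacCer3.

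The stretches below are shown because the same nucleotides were listed in both copies of a pair. They were read from the bases listed in replicate 2, written 5′ to 3′ on the mRNA strand, with n for a nucleotide that was not listed in that gene and capitals for nucleotides listed in both copies at the same distance from the last base of the gene.
RPS4A, chrX:702090-702095, minus strand: AnnGgT
RPS4B, chrVIII:504539-504544, minus strand: AnnGnT
RPS23A, chrVII:727544-727548, plus strand: TncTT
RPS23B, chrXVI:795581-795585, plus strand: TnnTT
RPS14A, chrIII:177726-177731, minus strand: GnnGGC
RPS14B, chrX:74380-74385, plus strand: GntGGC
RPS1A, chrXII:1018456-1018461, minus strand: GnnAAG
RPS1B, chrXIII:146929-146934, plus strand: GnnAAG
RPS30A, chrXII:712597-712602, minus strand: AnnTnC
RPS30B, chrXV:678251-678256, minus strand: AgaTnC

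Nearly every small subunit gene was listed. In replicate 1, 54 of 56 members had at least 1 position and in replicate 2 it was 52 of 56, a mean of 94.6% ± 2.53 (SD, n = 2), while 45.0% and 63.2% of the 6002 protein-coding genes were listed. Both replicates held 50 of the 56 members, or 89.3%, against 37.4% of protein-coding genes. The 81 genes of the large subunit, which include the stalk proteins RPP0, RPP1 and RPP2, had 78 and 79 members listed and 77 in both. Of the small subunit genes, 17 had 5 or more positions in replicate 1 and 39 in replicate 2, or 30.4% and 69.6% of members, against 4.05% and 17.8% of all protein-coding genes. Of the large subunit genes, 36 and 60 reached 5 positions. No test was run on these lists, and no RNA abundance was used here, so the numbers are not binding per transcript.

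Of the 6 members missed in a replicate, 4 were copies whose partner was listed in that replicate. These 4 were missed in replicate 2, where 52 of the 56 members, or 92.9%, were listed, so a listed partner was the usual case. RPS28A and RPS28B, which encode a small protein of the head near the mRNA exit, had no position in replicate 1 and had 1 and 5 in replicate 2. They are among the shortest members, with annotated spans of 204 nt each. In replicate 2, RPS9A, RPS17A, RPS22B and RPS27B had none, whereas their partners RPS9B, RPS17B, RPS22A and RPS27A had 5, 4, 1 and 2. In replicate 1 those 4 missed copies had been listed, with 8 positions in RPS9A, 3 in RPS17A, 4 in RPS22B and 2 in RPS27B. RPS9 acts in translational accuracy near the mRNA entry, Rps22 is a protein of the body and Rps27 a zinc finger protein.

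A small subunit gene had a median of 4 positions in replicate 1 and 8 in replicate 2, absent members included, and a mean of 4.05 and 8.46. The median over all protein-coding genes was 0 and 1, and that over large subunit genes 4 and 7. Per kilobase of annotated span, positions inside the gene had a median of 3.87 and 8.17 in small subunit genes, 4.88 and 8.03 in large subunit genes and 0 and 0.689 in all protein-coding genes. More positions were listed in replicate 2 than in replicate 1 for 40 members, fewer for 12 and the same number for 4. The order of the members was only loosely shared, with a Spearman's rho of 0.22 and, by Pearson's method, r = 0.20 between the replicates over 56 genes, which come from the same 2 libraries and are not independent.

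The larger number in replicate 2 lay mostly in neighbouring nucleotides. Merging positions that lay at most 5 nt apart into clusters, the members had 202 clusters in replicate 1 and 211 in replicate 2, with medians of 4 and 3.5 per gene, and 23 members had more clusters in each replicate while 10 had equal numbers. Across all protein-coding genes the clusters numbered 5628 and 10058. Of the 71 member clusters in replicate 2 with 3 or more positions and an untied maximum, the strongest position was the one closest to the 5′ end in 64, or 90.1%. The same held for 1339 of 1558 such clusters in the other protein-coding genes, or 85.9%. Replicate 1 had 2 such member clusters, 1 of them with the strongest position at its 5′ end. Several of the stretches above show this form, with a first nucleotide, a gap of 2 nucleotides and a short tail.

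By the worse of its ranks in the replicates, RPS31 stood first among the members, although RPS23A had more positions in replicate 1 and RPS1A and RPS13 had more in replicate 2. It encodes Rps31 of the beak as a fusion to ubiquitin (chromosome XII, 498947 to 499405), and it had 9 positions in replicate 1 and 19 in replicate 2, in 8 and 6 clusters. In replicate 1 its strongest nucleotides, 3 in number, were tied at 16.7% of the signal each. In replicate 2 the strongest was coordinate 499361, with 28% of the signal, 44 nt before the last base of the gene, followed by 498890, with 18.4%, 57 nt upstream of the start codon. RPS31 thus had positions upstream of the start codon and inside the gene in both replicates, and past the stop codon in replicate 1.

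The other high-ranking members came from the head and from the body. Of the head genes, RPS16A and RPS16B, whose protein reaches with its tail towards the tRNA of the P site, had 7 and 8 positions in replicate 1 and 15 each in replicate 2. RPS19B, of a head protein needed to mature the 18S RNA, had 7 and 11. Of the body and platform genes, RPS4A had 5 and 17, RPS1A 4 and 22, RPS1B 6 and 12, RPS13 4 and 20 and RPS7A 4 and 15. Counted as clusters, RPS1A and RPS7A each had 4 in replicate 1 and 8 in replicate 2.

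**Figure D1:**
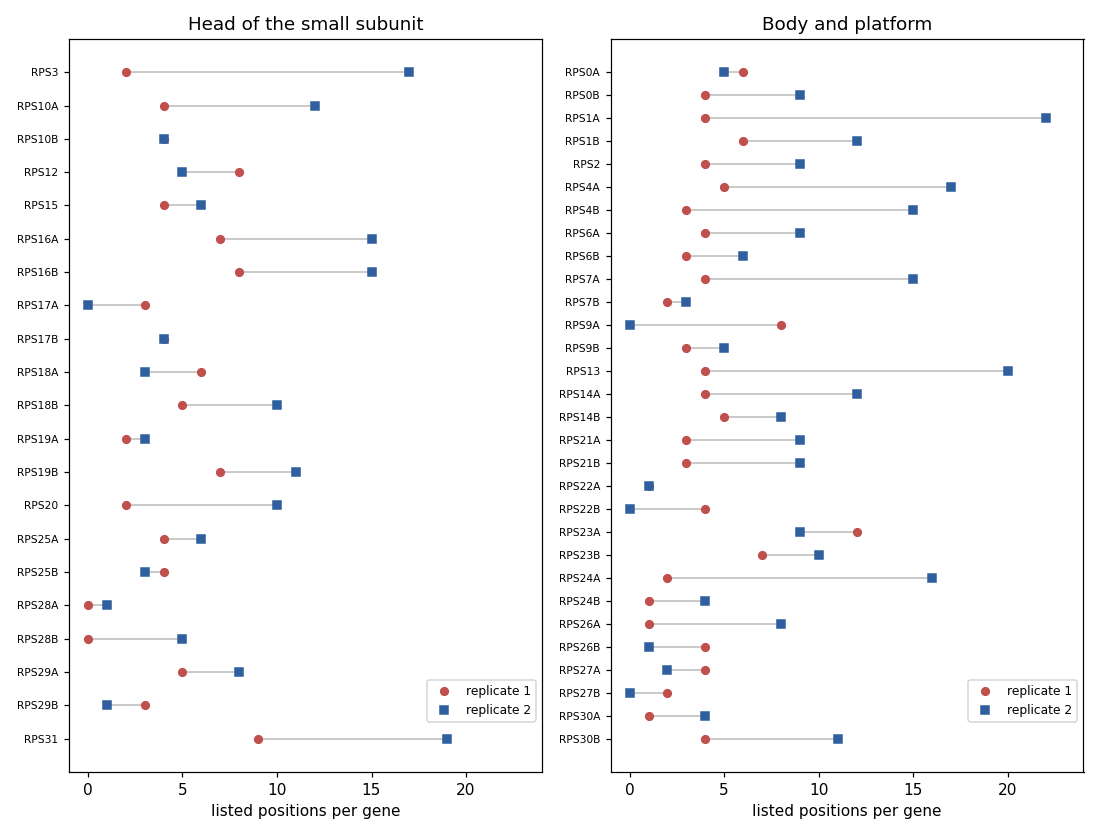
Number of listed positions (x axis) in 51 of the 56 small subunit genes (y axis), for replicate 1 (circles) and replicate 2 (squares), with the head genes on the left and the body and platform genes on the right; the grey line joins the replicates of a gene. RPS1A has the most positions in replicate 2 (22) and RPS23A the most in replicate 1 (12), and 6 genes have 0 in one of the replicates.

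Genes of the head and of the body had the same median number of positions in replicate 1 and different medians in replicate 2. The 22 head genes had a median of 4 and 6 positions, and the 34 body and platform genes a median of 4 and 9. All 34 body genes were listed in replicate 1 and 31 in replicate 2, and 20 and 21 of the 22 head genes. Inside the gene, the mean density was 5.63 and 10.3 positions per kilobase in head genes and 3.41 and 10.04 in body and platform genes. By the mean, head genes were thus denser per length in replicate 1 and close to body genes in replicate 2. By the median, head genes were denser in both replicates, with 5.78 and 8.73 against 3.32 and 7.65. The span includes any intron, so it is not the length of the mRNA. No test was made of these differences.

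Most of the signal of a small subunit mRNA lay inside the annotated gene. In an average listed member, 9.18% ± 1.74 of the signal was upstream of the start codon, 75.0% ± 5.53 inside the gene and 15.9% ± 3.79 past the stop codon (SD, n = 2). The large subunit genes had 4.69% ± 2.17, 80.2% ± 1.25 and 15.1% ± 0.929 in these places (SD, n = 2), and all protein-coding genes had 6.24% ± 1.45, 80.7% ± 5.31 and 13.0% ± 3.86 (SD, n = 2). The upstream share of small subunit genes was 10.4% and 7.95%, against 7.26% and 5.21% in all protein-coding genes and 3.15% and 6.23% in large subunit genes. RPS29A and RPS29B, each with 100% upstream in replicate 2, carried much of the share in that replicate and less of it in replicate 1. Without them the share in small subunit genes was 9.08% and 4.27%. It was then above that of all protein-coding genes in replicate 1 and below it in replicate 2. The 22 head genes, RPS29A and RPS29B among them, had 14.9% and 13.5% upstream, and the 34 body and platform genes 7.79% and 4.21%. Of the 21 head genes listed in replicate 2, 6 had any upstream signal, and RPS29A and RPS29B had no other signal. The head share without RPS29A and RPS29B was not computed, so the difference from body genes in replicate 2 may rest on them. The share of small subunit genes inside the gene was 71.0% and 78.9%, lower in each replicate than the 77.0% and 84.5% of all protein-coding genes. Their share past the stop codon was 18.5% and 13.2%, higher in each replicate than the 15.8% and 10.3% of all protein-coding genes. These shares weigh each listed gene equally, and in replicate 1, 3 members had all their signal past the stop codon. Counted by position, 74.0% and 83.8% lay inside small subunit genes, against 75.3% and 84.4% in all protein-coding genes. Past the stop codon it was 16.3% and 10.1%, against 16.7% and 10.1%, so that count did not show the higher share. These differences were not tested.

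**Figure D2:**
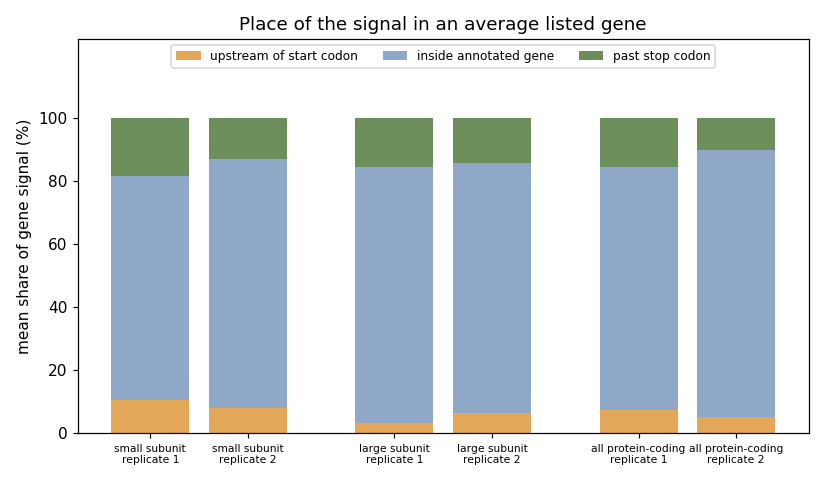
Mean share of a listed gene's signal (y axis, %) upstream of the start codon, inside the annotated gene and past the stop codon, for small subunit, large subunit and all protein-coding genes in each replicate (bars). The part inside the gene is the largest in each bar, 71.0% and 78.9% in small subunit genes.

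Upstream positions were found in a minority of the members. There were 22 in 13 genes of replicate 1 and 29 in 12 genes of replicate 2, or 24.1% and 23.1% of listed members, against 12.9% and 11.8% of all listed protein-coding genes. Members had more positions per gene, and of the positions themselves 9.69% and 6.12% were upstream in small subunit genes, against 7.96% and 5.53% in all protein-coding genes. The upstream positions of members had a median distance from the start codon of 28 and 17 nt. In all protein-coding genes it was 62.5 and 51 nt, and in large subunit genes 19 and 15 nt. The members with the largest mean upstream share among those in both replicates were RPS29B, RPS29A, RPS26A, RPS12 and RPS26B. RPS29A and RPS29B, which encode a zinc-binding protein of the head, had upstream signal in both replicates, but at different positions. RPS29A had 40% of its signal upstream in replicate 1 and 100% in replicate 2, and RPS29B 50% and 100%. In replicate 2 the RPS29A signal centred on coordinate 898483 of chromosome XII, 168 nt upstream, with 59.4%, and 5 other positions lay in the next 7 nt. That stretch is shown because it held 93.8% of the signal of the gene, with its strongest nucleotide in capitals.
RPS29A, chrXII:898483-898490, plus strand: Atngcgna
The nearest other annotated gene, SNR34, was 697 nt away from the strongest nucleotide. The only RPS29B position of replicate 2 was coordinate 341024 of chromosome IV, 226 nt upstream. Its nearest other annotated gene was TSR1, at 595 nt. In replicate 1 the farthest upstream RPS29A position was 510 nt from the start codon (coordinate 898141) and 469 nt from the gene REH1. The other upstream RPS29A position of replicate 1 lay at 21 nt, and the only upstream one of RPS29B at 49 nt. The annotated spans of both RPS29 genes, 171 nt, are the shortest among the members.

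Upstream signal of the other members rested on 1 replicate more often than on both. RPS12, of the beak, had 55.6% upstream in replicate 1, at 3, 7, 32 and 33 nt before the start codon, and 28.6% in replicate 2, at 15 nt. RPS26A, whose protein binds the mRNA exit and the end of the 18S RNA, had its only position of replicate 1 at 36 nt upstream and none upstream in replicate 2. RPS26B had 75.0% upstream in replicate 1, at 23, 24 and 281 nt, and none in replicate 2. RPS22B had 2 of its 4 positions of replicate 1 upstream, at 425 and 406 nt, and no position in replicate 2.

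Positions past the stop codon numbered 37 in 28 members of replicate 1 and 48 in 21 members of replicate 2. These were 51.9% and 40.4% of listed members, against 47.4% and 40.5% of large subunit genes and 24.6% and 20.5% of all listed protein-coding genes. Of the positions themselves, 16.3% and 10.1% were past the stop codon in small subunit genes, against 16.7% and 10.1% in all protein-coding genes. Their median distance from the last base was 60 and 64 nt, and the farthest lay at 191 and 204 nt. For all protein-coding genes the medians were 70 and 63 nt. RPS17B, of the head, stood first, with 66.7% of its signal past the stop codon in replicate 1 and 93.3% in replicate 2. Its strongest nucleotide was coordinate 1354787 of chromosome IV in replicate 1, 42 nt past the last base, and 1354736 in replicate 2, at 93 nt with 73.3% of the signal. RPS27A had 50% past the stop codon in both replicates, at 157 and 158 nt in replicate 1 and at 186 nt in replicate 2. RPS22A, RPS24B and RPS30A followed, with 100% in replicate 1, where each had only 1 position, at 24, 89 and 82 nt, and 0% in replicate 2.

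**Figure D3:**
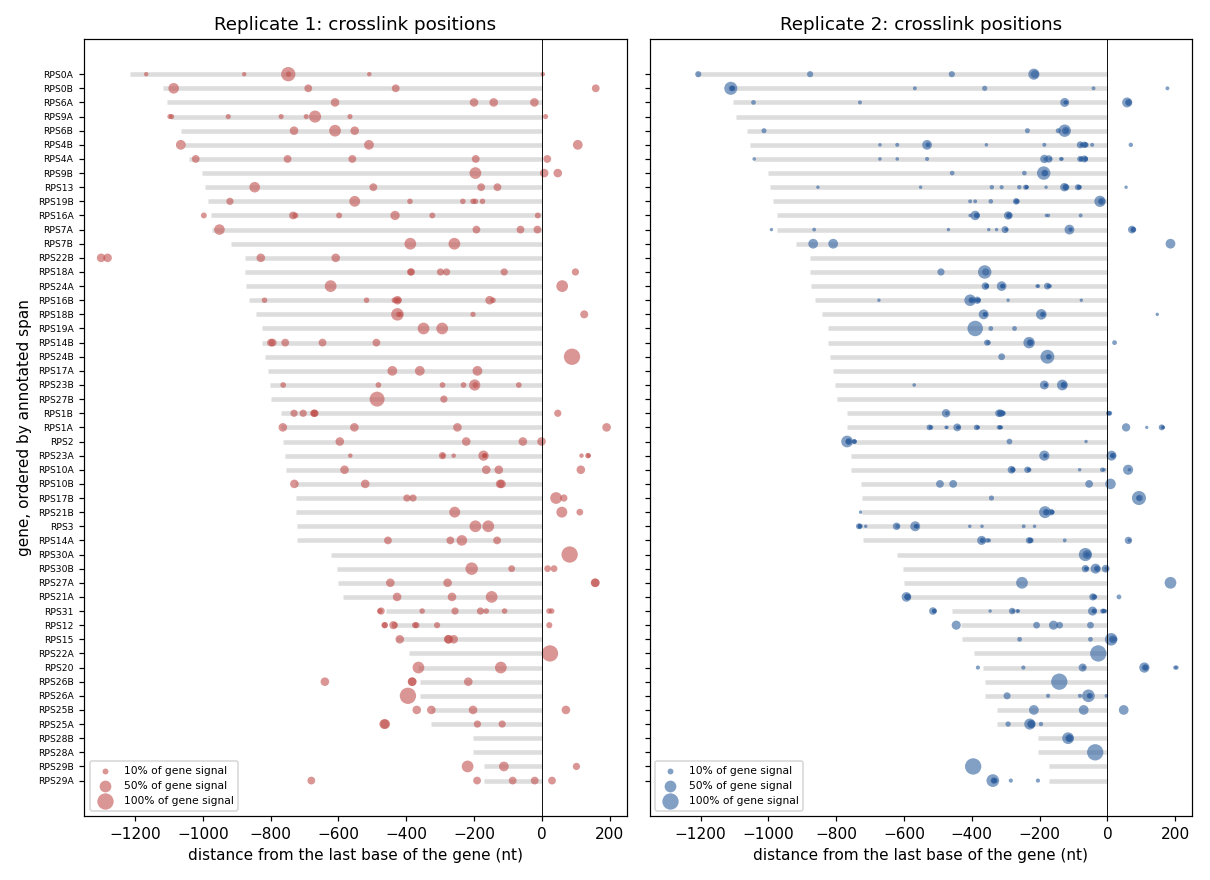
Listed positions of 51 of the 56 small subunit genes in replicate 1 (left) and replicate 2 (right), by distance from the last base of the gene (x axis, nt; 0 is the last base); grey bars are annotated spans, genes run from the longest at the top to the shortest at the bottom, and the area of a point grows with its share of the gene's signal. In replicate 2 many points of the long genes gather near the last base, and RPS29A and RPS29B have their strongest points left of the annotated span.

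In small subunit genes, the place of positions inside the gene differed with the kind of span. The annotation used here gives a gene's span with any intron included and no exon boundaries, so introns could not be placed. A span that is not a multiple of 3 cannot be an uninterrupted reading frame, and 26 of the 56 members have such a span, while the other 30 hold both uninterrupted genes and genes whose total length is a multiple of 3. In the first 2 of 5 equal parts of the span, the 26 genes had 24 of 85 positions in replicate 1 (28.2%) and 18 of 206 in replicate 2 (8.74%). The 30 genes had 38 of 83 (45.8%) and 58 of 191 (30.4%) there. In the last 2 parts the 26 genes had 51.8% and 77.7%, against 33.7% and 33.0% in the 30 genes. The 31 large subunit genes with such a span had 26.3% and 20.4% in the first 2 parts, and the other 50 large subunit genes 36.6% and 31.6%. In the last 2 parts these were 48.1% and 59.9%, against 34.8% and 50.7%. Outside the ribosomal protein genes, 161 genes with such a span had 52.3% and 37.95% of positions in the first 2 parts. The 5704 others had 44.6% and 41.0%, so the order in these parts was the other way in replicate 1. In the last 2 parts the 161 genes had 27.3% and 34.9%, against 35.6% and 39.0%, the other way in both replicates. Neighbouring positions were counted singly here, so a gene with a long cluster weighs more. The difference was not tested, since positions of 1 gene share their source, and introns could not be told apart from the first coding parts.

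**Figure D4:**
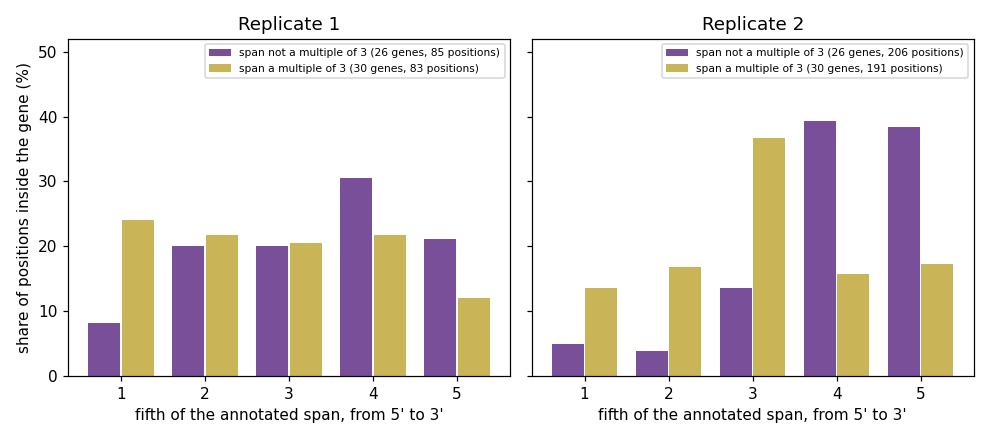
Share of the positions inside the gene (y axis, %) in 5 equal parts of the annotated span (x axis, from the start codon to the stop codon), for the 26 small subunit genes whose span is not a multiple of 3 (left bars) and the 30 whose span is one (right bars), in each replicate. In replicate 2 the 26 genes have 4.85% of their positions in the first part and 38.3% in the last, and the 30 genes have 36.6% in the middle part. Neighbouring positions are counted singly, so a few clusters can make up much of a part.

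The replicates rarely named the same nucleotide. Of the 227 member positions of replicate 1, 2 were listed at the same nucleotide in replicate 2, or 0.881%, against 6 of 369 in large subunit genes (1.63%) and 232 of 6279 in all protein-coding genes (3.69%). Within 5 nt, 9 member positions of replicate 1 met one of replicate 2, or 3.96%, against 7.59% in large subunit genes and 9.49% in all protein-coding genes. Among them were positions in RPS0A, RPS13, RPS14A, RPS15, RPS19A and RPS19B. In RPS13, coordinate 580321 with 20% in replicate 1 lay 4 nt from 580325, the strongest of replicate 2 with 24.04%. Within 20 nt it was 46 of 227, or 20.3%, against 22.2% in large subunit genes and 17.1% in all protein-coding genes. Members had a median of 4 and 8 positions per gene, against 0 and 1 in all protein-coding genes, and this was not allowed for.

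The strongest position of a member was seldom near that of the other replicate. It was tied in 31 members of replicate 1 and 4 of replicate 2. Of the 50 members in both replicates, 20 had an untied strongest position in each, and the distance between the replicates had a median of 174.5 nt. In 2 genes it was within 20 nt. RPS9B had 605312 (50%) in replicate 1 and 605320 (66.7%) in replicate 2, 8 nt apart. RPS23A, whose protein helps in decoding, had 727558 (37.5%) and 727544 (36.7%), 14 nt apart.

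Both copies of a pair were usually listed, as were most members. In 19 of the 24 pairs both copies were listed in both replicates. Since 50 of the 56 members, or 89.3%, were in both replicates, this number says little about pairs as such. The copy with more positions was the same in both replicates for 9 pairs, the other copy for 9, and the copies were level in at least 1 replicate for 6. The pairs RPS7, RPS19, RPS24, RPS30 and RPS29 had the largest difference in positions summed over the replicates. RPS7A had 4 and 15 positions and RPS7B 2 and 3. RPS24A had 2 and 16 and RPS24B 1 and 4, whereas for RPS19 and RPS30 the B copy led. RPS19A had 2 and 3 and RPS19B 7 and 11, and RPS30A had 1 and 4 and RPS30B 4 and 11. RPS29A had 5 and 8 and RPS29B 3 and 1. In each of these 5 pairs the order was the same in both replicates, but they were chosen by a sum over the replicates that favours this, so it is a description. Counted as clusters, the same copy led in both replicates in 10 pairs.

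**Figure D5:**
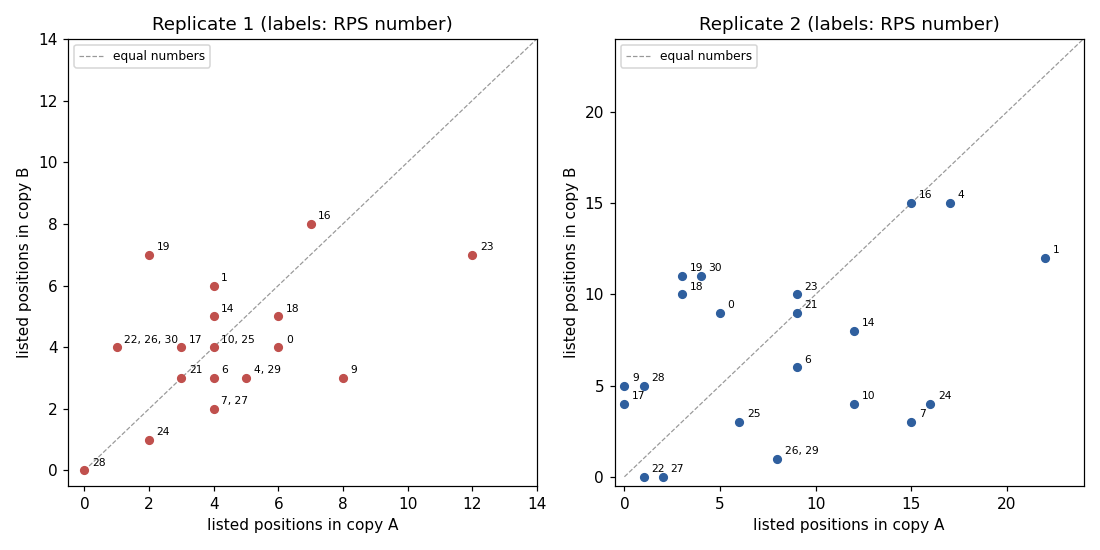
Listed positions of copy A (x axis) and copy B (y axis) of 22 of the 24 pairs, in replicate 1 (left) and replicate 2 (right); each point is labelled with the number of the protein and the dashed line marks equal numbers. RPS16 and RPS21 lie on the line in replicate 2, with 15 and 9 positions in each copy, and RPS7 and RPS24 far below it. Pairs with the same numbers share a point.

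In replicate 2, a part of the positions of copy A matched copy B by distance from an end of the gene. A position of copy A had one of copy B at the same distance from the first or last base of the gene 61 times in replicate 2, of 201 positions in the A copies, and in 15 of the 24 pairs. In replicate 1 this was so 3 times, of 97 positions, in 3 pairs, RPS6 and RPS23 among them. Counted once per 5 nt, the coincidences were 30 in replicate 2 and 3 in replicate 1. Of the 65 matches between positions, 61 had the same base in both copies: 20 of 20 that matched by both ends, 37 of 38 by the last base alone and 4 of 7 by the first base alone. Reads too short to tell the copies apart could be given to either, and how such reads were treated is not given in the sources used here, so the assignment between copies is uncertain and its part in the result was not tested.

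Several pairs had positions at the same distance from an end of the gene but with different weights. RPS4A and RPS4B coincided at 11 positions of replicate 2, which held 88.9% and 82.1% of their signal. At 9 of the 11 the base was the same, with 69.4% and 82.1% of the signal. Their stretches shown above held 26.4% of the RPS4A signal and 25.6% of the RPS4B signal, while the nucleotide 532 nt before the last base held 2.78% in RPS4A and 33.3% in RPS4B. RPS1A and RPS1B coincided at 6 positions, with 11.6% and 71.1% of the signal, the same base in each. RPS19A and RPS19B coincided at 2, with 94.7% and 6.52%, but at the one that held 89.5% in RPS19A the copies had different bases, and the other held 5.26% and 4.35%. RPS24A and RPS24B coincided at 3, with 49.1% and 92.9%, and RPS30A and RPS30B at 3, with 95.5% and 21.6%. RPS18A and RPS18B coincided at 2, with 83.3% and 4.24%. RPS7, RPS0 and RPS21 had 1, 1 and 2 coincidences, all by the first base alone and with the same base in each. The RPS21 coincidence inside the gene lay 43 nt before the last base in RPS21A and 181 nt before it in RPS21B. No alignment was made, so whether it is the same place in both copies is unknown. RPS10, RPS25, RPS26 and RPS29 had none in either replicate although both copies were listed in both.

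Among the other genes of the small subunit's life, the ribosome-bound protein genes stood nearer to the members than the assembly factors. ASC1, the RACK1 protein of the head, had 10 positions in replicate 1 and 42 in replicate 2, and STM1, which clamps idle ribosomes, 3 and 8. Of 16 genes for small subunit assembly, 9 were listed in replicate 1 and 14 in replicate 2, with 45.0% and 63.2% of protein-coding genes as background, and none had more than 2 and 5 positions. YAR1, the chaperone of Rps3, had 0 and 5. TSR1 had 2 and 2, NOB1, the nuclease that trims the 18S RNA, 0 and 4, and TSR2, the chaperone of Rps26, and the kinase gene RIO2 none. Of 6 regulators of ribosomal protein genes, HMO1 had 4 and 4, SFP1 4 and 1, FHL1 2 and 2, IFH1 1 and 3, RAP1 0 and 6 and CRF1 none.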

How the data were processed

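iCLIP positions of Dbp2p were taken from 2 samples of 1 group, in a table per sample. The normalized counts that the authors deposited are, by their values, a fraction per position, since those of a gene sum to 1 (within 1e-06) in every gene. Per the submitters' processing notes, CASAVA, TopHat and the build sacCer3 were used. Versions, read collapsing, treatment of reads with several mapping places and any minimum are not given in the sources used here, and the depth is unknown.

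Members were matched by systematic name to an annotation of assembly R64, which shares sacCer3 coordinates. As a check of the coordinates, the 5 member bases listed inside a start codon fitted ATG and the 3 inside a stop codon fitted one. All 701 positions lay on the gene's strand. Positions were placed by the annotated span. No test was run: with 1 group, values are given per replicate with the SD over n = 2, and lists beside all protein-coding genes. The members, lists and alternatives were chosen with earlier results of these data known; the split by spans that are multiples of 3, the clusters and the windows were added after the positions were seen. Genes were named by rule: members missed in a replicate, the 10 best by worse rank, those with a nucleotide in both replicates, the 5 pairs with the largest difference and the 5 with most signal in each flank; other genes named were chosen after their values were seen. Some members that the rule names are not reported here one by one, though they stay in every count, median and share. Introns could not be placed. Python 3.11.15, pandas 2.3.3, numpy 2.4.6, scipy 1.17.1 and matplotlib 3.10.9 were used, and the functions were tested on simulated data.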

Additional observations from a re-analysis of the deposited data

How the results depend on the processing

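Of 35 alternative values, 10 left out a replicate and were judged by the SD of 2 samples, which they cannot exceed, and 8 used a filter that removed no member position (lowest value of a table, or inside another gene), so these say nothing of stability. Of the other 17, 10 stayed within that SD or, for counts, within 1.5 times the main count. The upstream share of 9.18% was 6.67% without RPS29A and RPS29B. Positions at the same nucleotide in both replicates numbered 2, against 9 within 5 nt and 0 among positions with at least 10% of the gene's signal. Coincident positions of copies numbered 64, against 106 when offsets could differ by 5 nt, 33 when neighbours up to 5 nt apart counted as 1 and 15 with at least 10% of the signal. They ranged from 3 without replicate 2 to 61 without replicate 1, so the coincidences rest on replicate 2. Leaving out a replicate gave 92.9% to 96.4% of members listed, medians of 4 to 8 positions, and upstream, inside and downstream shares of 7.95% to 10.4%, 71.0% to 78.9% and 13.2% to 18.5%. The 10% minimum, the single counting of coincidences and leaving out the RPS29 genes were chosen after seeing the data. The number of positions in introns was not computed. No paired analysis was possible because there is only 1 group. Depth is unknown, so a missing gene or position cannot be read as absent binding.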

Other observations

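The base listed at a member position was most often A. In small subunit genes A made up 54.6% of positions in replicate 1 and 41.6% in replicate 2, T 23.3% and 26.6%, G 12.3% and 15.6% and C 9.69% and 16.2%. All protein-coding genes had 49.0% and 39.5% A and 31.4% and 29.3% T. Whether the listed nucleotide is the crosslinked one or its neighbour is not given in the sources used here, and the base composition of the genes was not used.

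The distances between positions of a member ended sharply in replicate 2. There were 137 pairs of positions 1 nt apart, 115 at 2 nt, 120 at 3 nt, 82 at 4 nt and 72 at 5 nt, and then 24 at 6 nt and 13 at 7 nt. In the other protein-coding genes the numbers were 3431, 2879, 2651, 1856, 1618, 463 and 399. In replicate 1 the members had 10, 8, 4, 7 and 4 pairs at 1 to 5 nt and 1 at 6 nt. No cause of this step was tested.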
